A study of Homo sapiens with 12 samples.

Results

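The heat shock proteins and HSP90 chaperones described here are 10 genes, HSPA1A, HSPA1B, HSPA8, HSP90AA1, HSP90AB1, HSPH1, DNAJB1, HSPB1, HSPD1 and HSPE1. They were chosen by gene symbol from the 20531 genes of the deposited tables, and each was found exactly once. RNA was sequenced from SKBR-3, a HER2-amplified breast carcinoma cell line, in 4 groups of 3 replicates. The groups were NT siRNA plus DMSO, NT siRNA plus lapatinib, FOXA1 siRNA plus DMSO and FOXA1 siRNA plus lapatinib, where NT is a non-targeting control pool and FOXA1 is a forkhead transcription factor of luminal breast cells. Lapatinib, which blocks the kinase activity of HER2 and EGFR, was given at 300 nM for 24 h, and DMSO, its solvent, for the same 24 h. The labels give 48 h of siRNA before the drug, whereas the methods of the study give a shorter interval. All groups come from a single cell line and all received an siRNA pool, and nothing in the labels says whether replicates were separate cultures, so p-values measure the spread between these samples, which may be technical.

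Molecular chaperones bind unfolded proteins and let them reach or keep their folded state. HSP70 proteins take up exposed stretches of a client with the help of J-domain partners and nucleotide exchange factors, and pass some clients on to HSP90, which holds kinases such as HER2 and steroid receptors in a state competent for signalling. Many of these genes are driven by heat shock factor 1 (HSF1), which binds heat shock elements, alternating short repeats in their promoters.

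Normalized counts are counts divided by library sizes that were scaled by edgeR's TMM method, at the mean depth of the 12 libraries. Expected counts per library summed to between 25749578 and 32271850, so counting error is small for the 10 genes. FOXA1 itself, the target of the siRNA, was at 8446, 8308 and 8767 normalized counts with NT siRNA and DMSO against 1160, 1362 and 1564 with FOXA1 siRNA and DMSO. With lapatinib it was at 12672, 12168 and 13177 against 1642, 1889 and 2384, and FOXA1 siRNA lowered it 6.19-fold in DMSO and 6.46-fold in lapatinib. The epithelial markers KRT8, KRT18, KRT19 and EPCAM and the HER2 amplicon genes ERBB2 and GRB7 were all at 176 TPM or more in every library, where TPM is a length- and depth-corrected abundance. The markers of leukocytes and endothelium, PTPRC and PECAM1, were at no more than 0.32 and 0.27 TPM in any library, COL1A1 of fibroblasts at no more than 5.58 TPM and ACTA2 of smooth muscle at no more than 4.51 TPM. In DMSO, ACTA2 was higher with FOXA1 siRNA than with NT siRNA (means of 3.40 and 1.48 TPM), and its part in the results was not tested.

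Replicate 2 stood apart in every group, and this touches the 10 genes directly. A chi-square per degree of freedom over genes was between 3.75 and 5.94 for replicates 1 and 3 of a group and between 12.7 and 18.5 for pairs that include replicate 2. Replicate 2 was the lowest of its group in all 4 groups for HSPA1A, HSPA1B, HSPA8, HSP90AA1, HSPH1 and HSPE1, and the highest in all 4 for HSPB1. Of 10812 genes with a mean of at least 100 normalized counts, 17.4% were lowest and 13.2% highest in replicate 2 of all 4 groups. The ratio of replicate 2 to the mean of the other two was between 0.504 and 0.737 for HSPA1A, between 0.637 and 0.755 for HSPH1 and between 1.02 and 1.46 for HSPB1. What set replicate 2 apart was not tested. For HSP90AB1, DNAJB1 and HSPD1, replicate 2 was the lowest in only 2 of the 4 groups. Because replicate 2 deviated in the same direction in every group for most of the 10 genes, a fit with the replicate number as a block is given beside each result of the 10 genes whose call it changed.

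The 10 genes lie at 8 places in the genome, given here in RefSeq's GRCh38.p14 assembly. HSPA1A (chr6:31815543-31817942) and HSPA1B (chr6:31827738-31830254) are neighbours on the plus strand, with 9795 bases between them. HSPD1 (chr2:197486584-197500274, minus strand) and HSPE1 (chr2:197500379-197503449, plus strand) point away from each other from starts that lie 105 bases apart. The others are HSPA8 (chr11:123057489-123062462), HSP90AA1 (chr14:102080742-102139749), HSPH1 (chr13:31134973-31162388) and DNAJB1 (chr19:14514769-14560391) on the minus strand, and HSP90AB1 (chr6:44246194-44253883) and HSPB1 (chr7:76302673-76304292) on the plus strand.

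The sequences upstream of the start sites are shown because most of these genes share a known type of site. RefSeq start windows, 250 bases before to 50 after each annotated start, were found for all 10 genes, 16 windows in all. A heat shock element was searched for on both strands as GAANNTTCNNGAA, 3 alternating units, with at most 1 of its 9 fixed letters changed. It occurred in windows of 8 genes, 9 of the 16 windows, against 6.23% of 34796 windows of all genes of the same length. HSPH1 and HSPE1 had no match in their single windows, which says only that these letters are not there. The stretches read as follows, 5′ to 3′ on the strand of the gene, with heat shock elements in capitals, and the distances are counted from the start site.
HSPA1A: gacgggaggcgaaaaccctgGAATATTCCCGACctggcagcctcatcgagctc
HSPA1B: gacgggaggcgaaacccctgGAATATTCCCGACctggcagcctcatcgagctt
HSPA8: gcttGAAAGTTCCAGAAcgct
HSPA8: ccccTTCTGGAAGGTTCtaag
HSP90AA1: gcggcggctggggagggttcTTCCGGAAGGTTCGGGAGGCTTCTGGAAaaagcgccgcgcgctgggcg
HSP90AB1: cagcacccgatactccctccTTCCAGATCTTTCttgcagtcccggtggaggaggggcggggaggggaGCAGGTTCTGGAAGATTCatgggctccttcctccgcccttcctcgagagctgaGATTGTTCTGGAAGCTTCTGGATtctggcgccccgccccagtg
DNAJB1: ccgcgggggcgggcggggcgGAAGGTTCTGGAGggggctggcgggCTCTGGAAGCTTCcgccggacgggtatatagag
HSPB1: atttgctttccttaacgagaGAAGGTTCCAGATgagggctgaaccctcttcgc
HSPD1: GCATTTTCTGGAAAGTTCTGGAAccga

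These stretches are chr6:31815417-31815469 for HSPA1A, chr6:31827613-31827665 for HSPA1B, chr11:123062350-123062370 and chr11:123062175-123062195 for HSPA8, chr14:102087085-102087152 for HSP90AA1, chr6:44247706-44247868 for HSP90AB1, chr19:14518417-14518494 for DNAJB1, chr7:76302471-76302523 for HSPB1 and chr2:197500064-197500090 for HSPD1. The elements of the HSP70 pair begin 106 bases before the start of HSPA1A and 105 before that of HSPA1B, and each differs from the searched pattern by 1 letter. HSP90AA1 held 4 overlapping elements at its downstream start, and HSP90AB1 held 6, in a window at the most downstream of its 3 annotated starts. The HSPD1 elements precede its downstream start and thus lie after its other RefSeq start. Both HSPA8 stretches precede the start of its window, chr11:123062136, but lie within the annotated gene, which reaches chr11:123062462. DNAJB1 had 3 windows, and the stretch shown precedes the middle one of its starts. Elements with all 9 letters occurred in 4 of the 16 windows, those of HSPA8, HSP90AA1, HSP90AB1 and HSPD1, against 0.491% of all windows. A shorter exact pair, GAANNTTC or TTCNNGAA, which overlaps the longer element, was found in 9 of the 16 windows in the first order and 4 in the second, against 6.79% and 7.76% of all windows. CCAAT was found in 7 of the 16 windows, belonging to 5 genes, against 34.6% of all windows. The forkhead core TGTTTAC occurred in 1 of the 16 windows, that of the distal HSP90AA1 start, against 3.42% of all windows. Heat shock elements were found for DNAJB1 and HSPB1, which did not fall with lapatinib, and not in the window of HSPH1, which fell most. Binding of HSF1 was not measured, and a part of these elements in the changes was not tested.

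**Figure D1:**
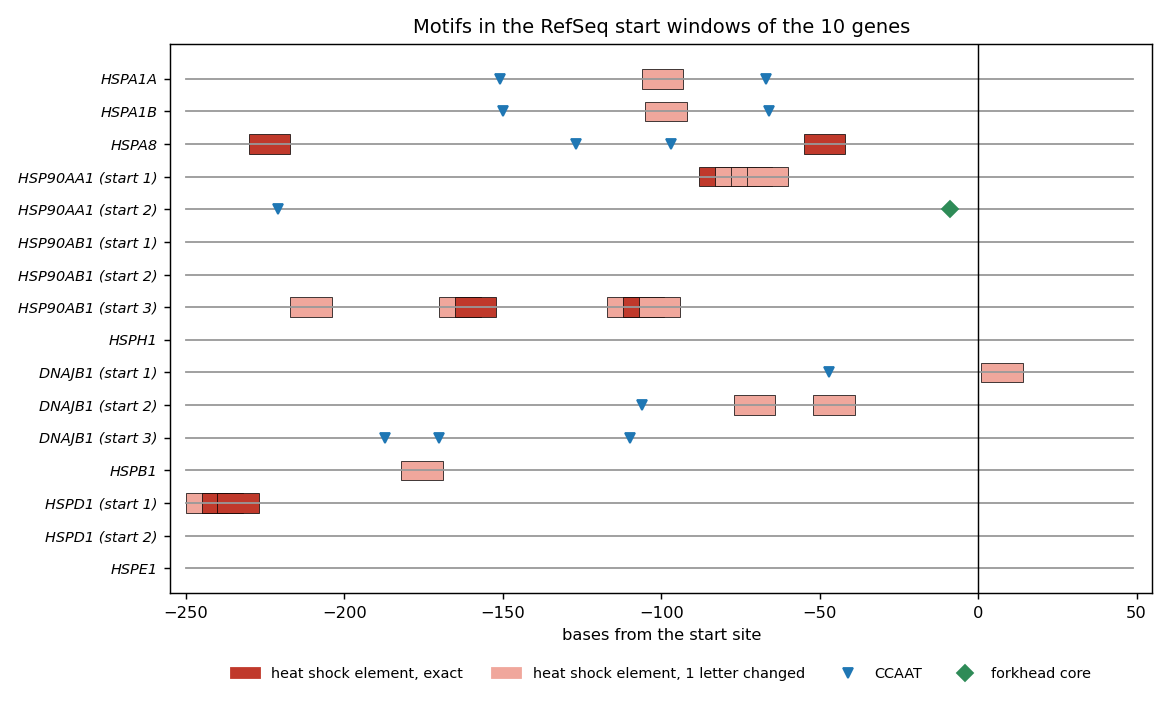
Motif matches in the 16 RefSeq start windows of the 10 genes, drawn against the distance in bases from the start site, with boxes for heat shock elements (dark where all letters match, pale where 1 letter is changed), triangles for CCAAT and a diamond for the forkhead core. Heat shock elements sit in windows of 8 genes, and the windows of HSPH1 and HSPE1 hold none.

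Levels between genes are compared per length, in TPM, and describe the cells with NT siRNA and DMSO (n = 3). HSPA8, the constitutive cytosolic HSP70, was the most abundant at 2404 TPM ± 305 (SD), 35th among all genes. HSPB1, a small heat shock protein that holds unfolded clients without using ATP, was at 1580 ± 393, the stress-inducible HSP90 gene HSP90AA1 at 1470 ± 182 and its constitutive partner HSP90AB1 at 1270 ± 73.6. The ranges of HSPB1, HSP90AA1 and HSP90AB1 overlapped between neighbours. Within each library HSP90AA1 was above HSP90AB1, with ratios of 1.18, 1.06 and 1.22. HSPB1 was above HSP90AA1 in replicate 2 and below it in replicates 1 and 3, so the order of HSPB1 and HSP90AA1 is not set by these samples. HSPD1 (639.6 TPM ± 58.0) and HSPE1 (249 TPM ± 26.5), the 2 parts of the mitochondrial chaperonin, followed, each apart from its neighbours. DNAJB1 (202 TPM), HSPA1B (160.5 TPM) and HSPH1 (159.8 TPM) overlapped in turn, and HSPA1A was lowest at 69.2 TPM ± 14.3.

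**Figure D2:**
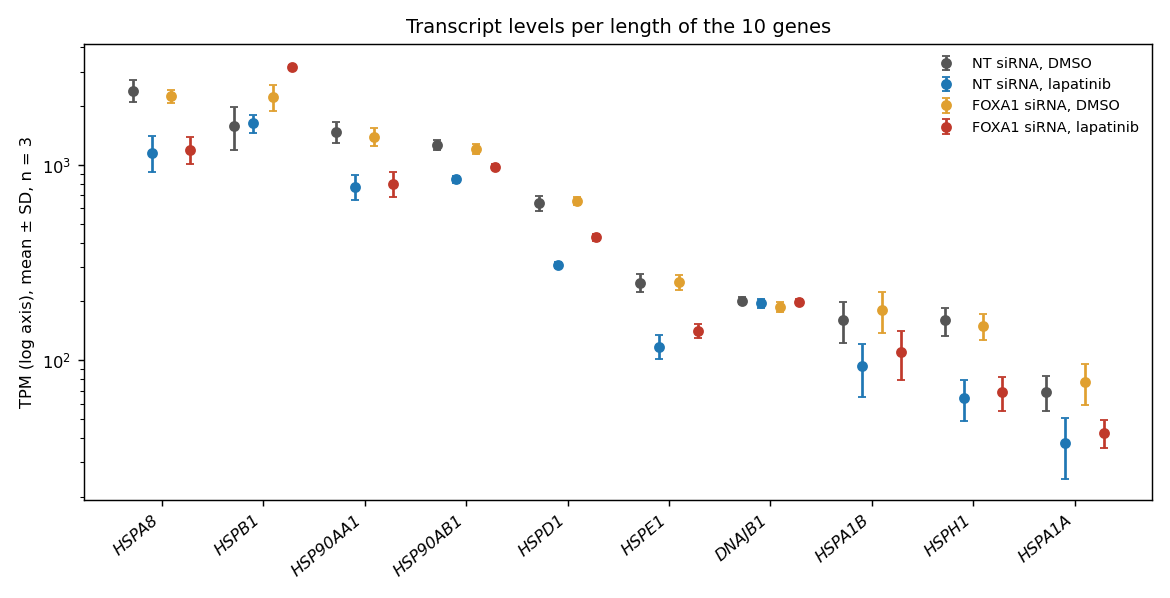
Mean TPM on a log axis of each of the 10 genes in the 4 groups, with bars for the SD of 3 replicates, ordered by the level with NT siRNA and DMSO. HSPA8 leads at 2404 TPM without drug, and HSPB1 leads in the group with FOXA1 siRNA and lapatinib at 3186 TPM.

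The order changed with treatment. With FOXA1 siRNA and lapatinib, HSPB1 was at 3186 TPM ± 74.3 and HSPA8 at 1199 ± 192, and the ranges of the 2 genes did not overlap. The sum of the 10 genes under NT siRNA was 8204 TPM ± 354 in DMSO and 5226 ± 241 in lapatinib (SD, n = 3). Under FOXA1 siRNA it was 8573 ± 376 in DMSO and 7152 ± 327 in lapatinib. HSPB1 alone was at 1633 TPM with NT siRNA and lapatinib and at 3186 with FOXA1 siRNA and lapatinib. Most of the gap between the 2 lapatinib sums is therefore HSPB1, and the same holds for the shares below. The TPM total of all listed genes differed between libraries. As a share of that total, the 10 genes were at 0.881% in DMSO and 0.580% in lapatinib under NT siRNA. Under FOXA1 siRNA the shares were 0.923% and 0.788%. HSP90AA1 was above HSP90AB1 in all 6 libraries with DMSO, with ratios of TPM between 1.06 and 1.22. With lapatinib the ratio was between 0.747 and 1.04 under NT siRNA and between 0.675 and 0.914 under FOXA1 siRNA.

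HSPA1A and HSPA1B encode nearly the same protein, and their counts cannot be fully separated. Their coding sequences have 1926 bases and differ at 4 of them, and of the 76-base windows of the annotated HSPA1A transcript 73.7% also occur in HSPA1B. HSPA1A held between 24.8% and 32.4% of the counts of the pair over the 12 libraries, so the division between the copies is uncertain and the sum is the safer measure. HSPE1 shared 40% of such windows with a read-through transcript and pseudogenes, HSPD1 10.6%, HSPB1 9.26%, HSP90AA1 6.41%, HSP90AB1 5.28% and HSPA8 1.69%, mostly with pseudogenes, whereas HSPH1 and DNAJB1 shared none.

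Lapatinib with NT siRNA lowered 8 of the 10 genes and left DNAJB1 and HSPB1 without a call. Genes were called where edgeR's quasi-likelihood p, adjusted by Benjamini-Hochberg over 13713 genes, was under 0.05. Of all genes tested, 29.2% were lower and 30.5% higher. The 8 were lower and 0 were higher. In the 8 every lapatinib library was below every DMSO library, a trait whose share over all genes is not given here. HSPH1, HSPE1, HSPA8 and HSPD1 also passed a log2 fold change of 1 in size, which 13.8% of all genes did. The median log2 fold change was -0.87 over the 10 genes and 0.03 over all genes tested. In RNA from bulk cells, fewer cells that make a transcript and less transcript per cell cannot be told apart.

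Among the HSP70 genes, HSPA8 was at 90916, 67711 and 84934 normalized counts with DMSO and at 44658, 29771 and 44379 with lapatinib. The groups did not overlap, and replicate 2 was the lowest in both. HSPA8 fell 2.02-fold (log2 fold change -1.01 ± 0.16 SE, adjusted p = 0.000852, edgeR). HSPA1A, a stress-inducible HSP70, was at 3304, 2074 and 2631 with DMSO and at 1623, 890 and 1908 with lapatinib, and its near copy HSPA1B was at 8308, 4966 and 6057 against 4836, 2549 and 3975. Within each gene, the highest lapatinib library lay just under the lowest DMSO library. HSPA1A fell by 0.83 and HSPA1B by 0.74 on the log2 scale, with edgeR adjusted p of 0.0243 and 0.0280, and the sum of both by 0.77 (adjusted p = 0.0245). These calls were the least firm. Without replicate 1 of NT siRNA and DMSO the adjusted p was 0.0846 for HSPA1A and 0.0995 for HSPA1B, and without replicate 3 of NT siRNA and lapatinib it was 0.0613 for HSPA1B.

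HSPH1, an HSP110 protein that acts as a nucleotide exchange factor for HSP70, showed the largest decrease of the 10. It was at 10417, 7236 and 9888 normalized counts with DMSO and at 4392, 2703 and 4090 with lapatinib, so that each lapatinib library was far below each DMSO library. The change was 2.42-fold (log2 fold change -1.28 ± 0.19 SE, edgeR adjusted p = 0.000566). DNAJB1, a J-domain partner that delivers clients to HSP70, was at 7684, 6772 and 6974 with DMSO and at 6953, 7320 and 6699 with lapatinib, and the groups overlapped (log2 fold change -0.01 ± 0.06 SE, edgeR adjusted p = 0.900).

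Both cytosolic HSP90 genes fell. HSP90AA1 was at 76577, 56910 and 74530 normalized counts with DMSO and at 39924, 29883 and 40144 with lapatinib, a 1.86-fold decrease (log2 fold change -0.90 ± 0.14 SE, edgeR adjusted p = 0.000666). HSP90AB1 was at 49045, 41827 and 46876 against 32016, 31571 and 30381, a 1.44-fold decrease (log2 fold change -0.53 ± 0.06 SE, adjusted p = 0.000107). Its lapatinib libraries lay close together and did not share the low value of replicate 2.

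In the mitochondrial pair, HSPD1, the HSP60 barrel, was at 23710, 19235 and 23252 normalized counts with DMSO and at 11277, 10643 and 10454 with lapatinib. HSPE1, the HSP10 lid, was at 3826, 3056 and 3842 against 1880, 1418 and 1826. Neither gene overlapped between the groups. HSPD1 fell by 1.01 ± 0.08 and HSPE1 by 1.04 ± 0.12 on the log2 scale (SE, edgeR adjusted p = 1.67e-05 and 0.000154). The ratio of HSPD1 to HSPE1 in TPM was 2.57 ± 0.053 with DMSO and 2.67 ± 0.411 with lapatinib (SD, n = 3).

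HSPB1 was at 18599, 25866 and 16755 normalized counts with DMSO and at 20409, 23884 and 20123 with lapatinib. The DMSO library of replicate 2 was the highest of the 6, and the groups overlapped (log2 fold change 0.09 ± 0.15 SE, edgeR adjusted p = 0.625). Without replicate 2 of all groups HSPB1 was called higher by 0.21 on the log2 scale (adjusted p = 0.00411), and without replicate 2 of NT siRNA and DMSO alone by 0.28 (adjusted p = 0.0231). By replicate number, HSPB1 rose in replicates 1 and 3, by 0.13 and 0.26 on the log2 scale, and was at -0.12 in replicate 2. With the replicate block, 8 genes were again lower and 0 higher, against 32.8% and 34.5% of all genes.

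**Figure D3:**
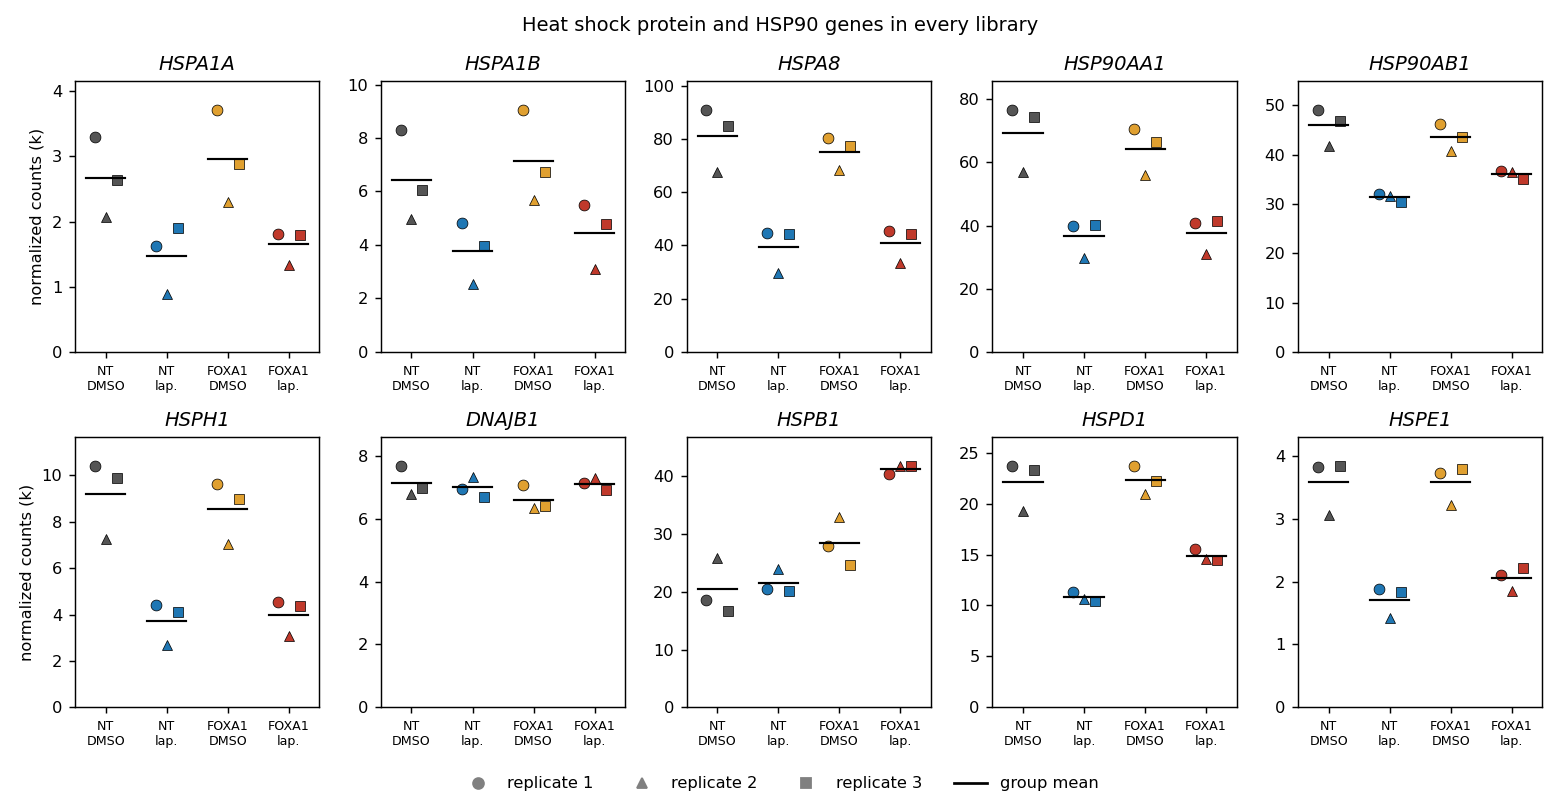
Normalized counts of the 10 genes, on linear axes in k (kilo), in each of the 12 libraries, with a panel for each gene, symbols for the replicate number and a line for the group mean. With lapatinib 8 genes lie lower under both siRNAs, DNAJB1 stays between 6323 and 7684 in all libraries, and HSPB1 is highest with FOXA1 siRNA and lapatinib.

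With FOXA1 siRNA, lapatinib again lowered 8 genes, and HSPB1 rose. Of 13745 genes tested, 29.1% were called lower and 29% higher. HSPH1 passed a log2 fold change of 1 in size, as 10.1% of all genes did. The median over the 10 genes was -0.72, against 0.01 over all genes. In each of the 9 called genes the 2 groups did not overlap, and the share of all genes without overlap is not given here. The replicate block called 8 lower and 2 higher, where it called 34.1% and 34.5% of all genes.

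HSPB1 was at 27953, 32932 and 24639 normalized counts with FOXA1 siRNA and DMSO and at 40406, 41817 and 41713 with FOXA1 siRNA and lapatinib. Each lapatinib library was above each DMSO library, a 1.46-fold increase (log2 fold change 0.54 ± 0.09 SE, edgeR adjusted p = 0.00105). DNAJB1 was at 7066, 6323 and 6392 against 7123, 7279 and 6920. Its groups overlapped and its log2 fold change of 0.12 ± 0.05 (SE) was not called (edgeR adjusted p = 0.0883), but it was called with the replicate block (adjusted p = 0.0249) and without replicate 1 of FOXA1 siRNA and DMSO (adjusted p = 0.0219).

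HSPH1 was at 9632, 7019 and 8970 normalized counts with FOXA1 siRNA and DMSO and at 4537, 3061 and 4357 with lapatinib, 2.13-fold lower (log2 fold change -1.09 ± 0.16 SE, edgeR adjusted p = 0.000568). HSPA8 was at 80313, 68202 and 77302 against 45269, 33418 and 44260 (1.83-fold lower, adjusted p = 0.000295). Both genes kept replicate 2 as their lowest library in either group. HSPA1A was at 3712, 2295 and 2886 against 1816, 1332 and 1798, and HSPA1B at 9047, 5680 and 6730 against 5512, 3087 and 4768. They fell by 0.84 ± 0.18 and 0.68 ± 0.22 on the log2 scale (SE, edgeR adjusted p = 0.00400 and 0.0296). The call of HSPA1B was lost, with adjusted p between 0.0517 and 0.106, without replicate 1 or replicate 3 of FOXA1 siRNA and DMSO and without replicate 2 or replicate 3 of FOXA1 siRNA and lapatinib.

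HSP90AA1 was at 70490, 55928 and 66553 normalized counts with FOXA1 siRNA and DMSO and at 40915, 30907 and 41551 with lapatinib (1.69-fold lower, edgeR adjusted p = 0.000929). HSP90AB1 was at 46186, 40689 and 43589 against 36679, 36553 and 35020 (adjusted p = 0.00257). HSP90AB1 showed the smallest of the 8 decreases, with a log2 fold change of -0.26 ± 0.05 (SE). HSPD1 was at 23723, 20948 and 22246 against 15496, 14588 and 14444, and HSPE1 at 3726, 3216 and 3789 against 2108, 1851 and 2211. HSPD1 fell by 0.58 ± 0.05 and HSPE1 by 0.79 ± 0.09 on the log2 scale (SE, edgeR adjusted p = 5.05e-05 and 0.000105).

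**Figure D4:**
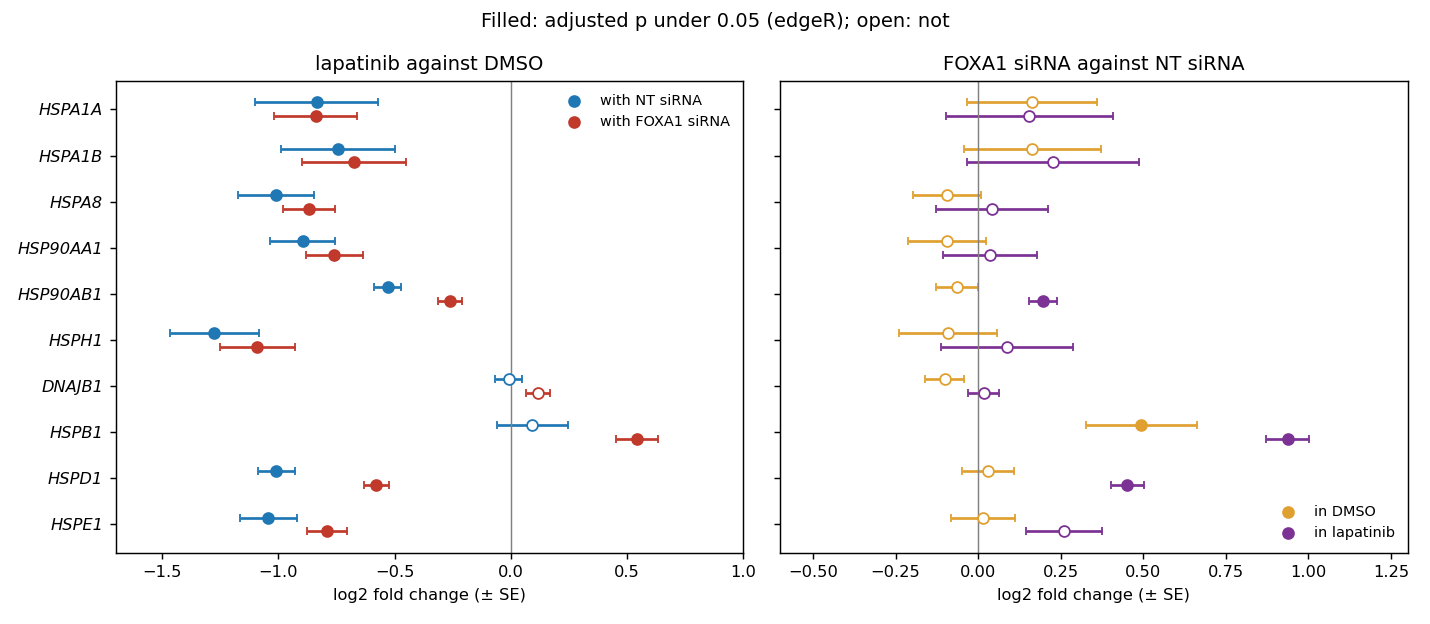
Log2 fold changes with standard errors of the 10 genes, for lapatinib against DMSO under each siRNA (left) and for FOXA1 siRNA against NT siRNA under each treatment (right), with filled points where the edgeR adjusted p is under 0.05. The 8 genes that fall with lapatinib do so under both siRNAs, and HSPB1 rises with FOXA1 siRNA by 0.49 in DMSO and 0.94 in lapatinib.

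An interaction term, fitted over the 12 samples, compared the response to lapatinib between the 2 siRNAs. HSPD1 was the single gene of the 10 with a call. Its decrease was smaller with FOXA1 siRNA by 0.44 ± 0.10 on the log2 scale (SE, edgeR adjusted p = 0.0243). Of 14012 genes tested, 3.99% were called with a positive and 3.2% with a negative interaction. All 10 estimates were above 0, between 0.01 for HSPA1A and 0.46 for HSPB1, with a median of 0.18 against 0.01 over all genes, but those of HSPA1A, HSPA1B and HSPA8 changed sign when single libraries were left out. The call of HSPD1 was lost without any of 6 single libraries, which were replicates 1 and 3 of NT siRNA and DMSO, replicate 3 of NT siRNA and lapatinib, replicates 2 and 3 of FOXA1 siRNA and DMSO and replicate 1 of FOXA1 siRNA and lapatinib, with adjusted p between 0.0505 and 0.0650.

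With the replicate block, 5 genes had a positive interaction, HSP90AB1 (0.28, edgeR adjusted p = 0.00784), HSPH1 (0.20, adjusted p = 0.0337), HSPB1 (0.46, adjusted p = 0.0148), HSPD1 (0.44, adjusted p = 0.000853) and HSPE1 (0.27, adjusted p = 0.00704), and 0 had a negative one. Of all genes the block called 11.1% positive and 9.22% negative. Without replicate 2 of all groups 5 genes were positive as well, with HSP90AA1 (adjusted p = 0.0244) in place of HSPH1. That fit called 1426 of 13861 genes positive and 1092 negative. HSPA1A, HSPA1B, HSPA8 and DNAJB1 were not called in either fit.

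FOXA1 siRNA in DMSO moved HSPB1 and left the other 9 genes without a call. HSPB1 was at 18599, 25866 and 16755 normalized counts with NT siRNA and at 27953, 32932 and 24639 with FOXA1 siRNA, so that the highest NT library overlapped the FOXA1 group. The increase was 1.41-fold (log2 fold change 0.49 ± 0.17 SE, edgeR adjusted p = 0.0463). Of 13694 genes tested, 21.9% were called higher and 21.3% lower, and 6.84% passed a log2 fold change of 1 in size, which none of the 10 did. The call was lost under DESeq2 (adjusted p = 0.0846), under upper quartile normalization (adjusted p = 0.0538) and without replicate 1 or 3 of NT siRNA and DMSO or replicate 1 or 2 of FOXA1 siRNA and DMSO (adjusted p between 0.0918 and 0.138). By replicate number HSPB1 was higher with FOXA1 siRNA in all 3 pairs, by 0.59, 0.35 and 0.56 on the log2 scale.

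The other 9 genes differed by between -0.10 (DNAJB1) and 0.16 (HSPA1A and HSPA1B) on the log2 scale, with standard errors between 0.06 and 0.21. With the replicate block, calls appeared at nearly the same fold changes, 3 higher and 5 lower, against 30.3% and 30.2% of all genes. The higher ones were HSPA1A (0.16), HSPA1B (0.17) and HSPB1 (0.51), with edgeR adjusted p of 0.00160, 0.000529 and 5.89e-06. The lower ones were HSPA8 (-0.09), HSP90AA1 (-0.09), HSP90AB1 (-0.06), HSPH1 (-0.09) and DNAJB1 (-0.10), with adjusted p between 0.00794 and 0.0424. HSPD1 and HSPE1 were at 0.03 and 0.02 with no call in the block. Without replicate 2 of all groups, HSPA8 (-0.14) and HSP90AA1 (-0.13) were called lower, as were 3792 of the 13547 genes tested in that fit.

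In lapatinib, FOXA1 siRNA raised HSPB1, HSPD1 and HSP90AB1, and lowered none of the 10. The HSPB1 libraries were at 20409, 23884 and 20123 normalized counts with NT siRNA and at 40406, 41817 and 41713 with FOXA1 siRNA, with no overlap. The difference was 1.91-fold (log2 fold change 0.94 ± 0.07 SE, edgeR adjusted p = 2.39e-05). HSPD1 was at 11277, 10643 and 10454 against 15496, 14588 and 14444 (1.37-fold higher, adjusted p = 0.000226), and HSP90AB1 at 32016, 31571 and 30381 against 36679, 36553 and 35020 (1.15-fold higher, adjusted p = 0.00596). In all 3 genes each FOXA1 siRNA library was above each NT siRNA library, again with no share over all genes given. Of 13727 genes tested, 22.7% were higher, 22.2% lower and 8.41% past a log2 fold change of 1 in size. Each of these 3 calls held without any single library.

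The other 7 genes differed by between 0.02 (DNAJB1) and 0.26 (HSPE1) on the log2 scale without a call. The replicate block called 6 genes higher and 0 lower, against 30.6% and 31.1% of all genes. It added HSPA1B (0.23, edgeR adjusted p = 0.000123), HSPE1 (0.27, adjusted p = 0.000521) and HSPH1 (0.10, adjusted p = 0.0404). The comparisons of FOXA1 siRNA share their libraries with those of lapatinib, so they are not independent of the interaction. HSP90AA1 was at 39924, 29883 and 40144 normalized counts with NT siRNA against 40915, 30907 and 41551 with FOXA1 siRNA, and within each replicate number the difference was at most 0.05 on the log2 scale.

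The patterns of the 10 genes over the 12 libraries were compared by Pearson's r of log2 normalized counts, as a description, since the libraries share the groups and the replicate numbers. Among the 8 genes other than HSPB1 and DNAJB1, r was between 0.792 and 0.997 over 28 pairs (median 0.915). These 8 are the genes called lower with lapatinib in the same libraries, so a high r among them follows in part from that choice. HSPA1A and HSPA1B were not matched to each other. Out of 10812 genes, the gene most like HSPA8 was HSPH1 (r = 0.997), and the gene most like HSPH1 was HSP90AA1 (r = 0.997). HSPD1 was most like CCT8, a subunit of the cytosolic chaperonin TRiC (r = 0.996), HSPA1A was most like DNAJA1, another J-domain partner of HSP70 (r = 0.962), and HSPE1 was most like FAM162A (r = 0.998). HSPA1B was most like PANK1 (r = 0.966), HSP90AB1 most like QSER1 (r = 0.992) and DNAJB1 most like C11orf95, at the lowest r of the 10 (0.841). HSPB1 was most like its own pseudogene copy HSPB1P1 (r = 0.997), which shares sequence with it, and next most like MFAP2 (r = 0.981). Between HSPB1 and each of the other 9, r was between -0.446 and -0.081. For DNAJB1 and each of the other 9 it was between -0.221 and 0.054.

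HSF1, the main heat shock factor, rose with lapatinib. It was at 2688, 2702 and 2669 normalized counts with NT siRNA and DMSO and at 2990, 3386 and 2985 with NT siRNA and lapatinib (log2 fold change 0.24 ± 0.06 SE, edgeR adjusted p = 0.00936). With FOXA1 siRNA it was at 2770, 2815 and 2743 against 3605, 3697 and 3505 (0.38 ± 0.04, adjusted p = 0.000116). All lapatinib libraries were thus above all DMSO libraries for HSF1 under either siRNA. HSF1 was also higher with FOXA1 siRNA in lapatinib, by 0.20 (adjusted p = 0.0250). The call under NT siRNA was lost without replicate 3 of NT siRNA and DMSO (adjusted p = 0.0521), and that of FOXA1 siRNA in lapatinib without replicate 1 or 3 of NT siRNA and lapatinib or replicate 1 or 2 of FOXA1 siRNA and lapatinib (adjusted p between 0.0801 and 0.0907). HSF2 was not called in any comparison, with log2 fold changes between -0.18 and 0.10 in the 4 comparisons of 2 groups, but the replicate block called it lower with FOXA1 siRNA in DMSO (-0.18, adjusted p = 0.0166), as did the fits with all 12 samples in one model (adjusted p = 0.0197), without replicate 2 of all groups (adjusted p = 0.0291) and without replicate 2 of FOXA1 siRNA and DMSO (adjusted p = 0.0490). HSBP1, a small protein that binds HSF1 and holds it in check, fell with lapatinib by 0.44 under NT siRNA and by 0.57 under FOXA1 siRNA (adjusted p = 0.000235 and 3.68e-05), and its relative HSBP1L1 rose by 0.92 and 0.86 (adjusted p = 0.00549 and 0.000508).

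Some other inducible or compartment-specific chaperones were read singly. HSPA6, an HSP70 that is nearly silent without stress, was at 6.85 ± 2.63 normalized counts with NT siRNA and DMSO and 3.85 ± 2.89 with lapatinib (SD, n = 3), against 10.8 ± 1.63 and 13.5 ± 3.54 with FOXA1 siRNA. These are a handful of reads per library. In lapatinib it reached the filter of 10 counts through the FOXA1 siRNA libraries alone, so its higher level there is given as a description with no test. BAG3, a stress-inducible exchange factor of HSP70, fell with lapatinib by 0.20 under NT siRNA and 0.31 under FOXA1 siRNA (adjusted p = 0.0345 and 0.00186). The first of these calls was lost without replicate 1 of NT siRNA and DMSO (adjusted p = 0.132) or any library of NT siRNA and lapatinib (adjusted p between 0.0615 and 0.0844). HSPA5 of the endoplasmic reticulum was not called with lapatinib (log2 fold changes -0.12 and 0.06), except under NT siRNA with the replicate block (-0.12, adjusted p = 0.0173) and without replicate 2 of all groups (-0.13, adjusted p = 0.0148), and was higher with FOXA1 siRNA by 0.20 in DMSO and 0.38 in lapatinib (adjusted p = 0.0382 and 0.00181). The call in DMSO was lost without replicate 1 or 3 of NT siRNA or replicate 1 or 2 of FOXA1 siRNA (adjusted p between 0.0750 and 0.126). HSP90B1, the HSP90 of the same compartment, was at 0.06 with no call under NT siRNA and rose with lapatinib by 0.24 under FOXA1 siRNA (adjusted p = 0.000297).

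A set of 89 other chaperone, co-chaperone and heat shock factor genes, in 9 lists with some mitochondrial genes in 2 of them, was read beside the 10. With NT siRNA, lapatinib lowered 48 and raised 15 of the 84 tested, with a median log2 fold change of -0.42 against 0.03 over all genes. With FOXA1 siRNA it lowered 46 and raised 15 of 85, with a median of -0.23. Over all genes tested, 29.2% were lower and 30.5% higher with NT siRNA, and 29.1% and 29% with FOXA1 siRNA. Of the HSP90 co-chaperones, proteins that load or release HSP90's clients, 13 of 17 fell and 1 rose with NT siRNA (median -0.55). FKBP5, an immunophilin that is also a steroid receptor target, fell by 1.68 ± 0.11 on the log2 scale (SE, edgeR adjusted p = 8.56e-06) and CHORDC1 by 1.28 ± 0.27 (adjusted p = 0.00376). With FOXA1 siRNA 13 of the 17 fell and 2 rose. With the replicate block 13 fell and 2 rose under either siRNA. The block called 32.8% of all genes lower with NT siRNA and 34.1% with FOXA1 siRNA, and 34.5% higher with either.

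TRiC, the cytosolic chaperonin that folds actin and tubulin, fell as a whole with NT siRNA, 8 of 8 subunits (median -0.52), led by CCT5 at -1.09 ± 0.06 and TCP1 at -0.73 ± 0.07 (SE, edgeR adjusted p = 5.15e-06 and 3.48e-05). With FOXA1 siRNA 7 of the 8 fell, CCT5 by 0.68, and 8 of the 8 with the replicate block. Of the mitochondrial chaperones and proteases, 8 of 10 fell and 1 rose with NT siRNA (median -0.54). TRAP1, the mitochondrial HSP90, fell by 0.92 ± 0.05 (adjusted p = 3.09e-06), the protease LONP1 by 0.85 ± 0.05, and CLPX rose by 0.50 ± 0.05. With FOXA1 siRNA the same list had 8 lower and 1 higher (2 higher with the replicate block). The shares over all genes were 29.2% lower and 30.5% higher with NT siRNA, and 29.1% and 29% with FOXA1 siRNA.

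Other HSP70 and HSP110 genes had 7 of 12 lower and 0 higher with NT siRNA, with HSPA12A at -1.42 and HSPA2 at -1.38, and again 7 lower and 0 higher with FOXA1 siRNA. J-domain proteins were divided, with 8 of 21 higher and 8 lower under NT siRNA and 7 of each under FOXA1 siRNA. Beside the lists of this paragraph, 30.5% of all genes were higher and 29.2% lower under NT siRNA. Under FOXA1 siRNA these shares were 29% and 29.1%. DNAJB9, of the endoplasmic reticulum, rose by 0.75 and DNAJC12 by 0.57, while DNAJC9 fell by 1.22 and DNAJA1 by 0.87 (all with NT siRNA). Of 10 nucleotide exchange factors, 6 fell and 2 rose with NT siRNA and 6 fell and 1 rose with FOXA1 siRNA (2 rose with the replicate block), among them GRPEL1 (-0.82 and -0.55) and SIL1 (0.44 and 0.27).

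**Figure D5:**
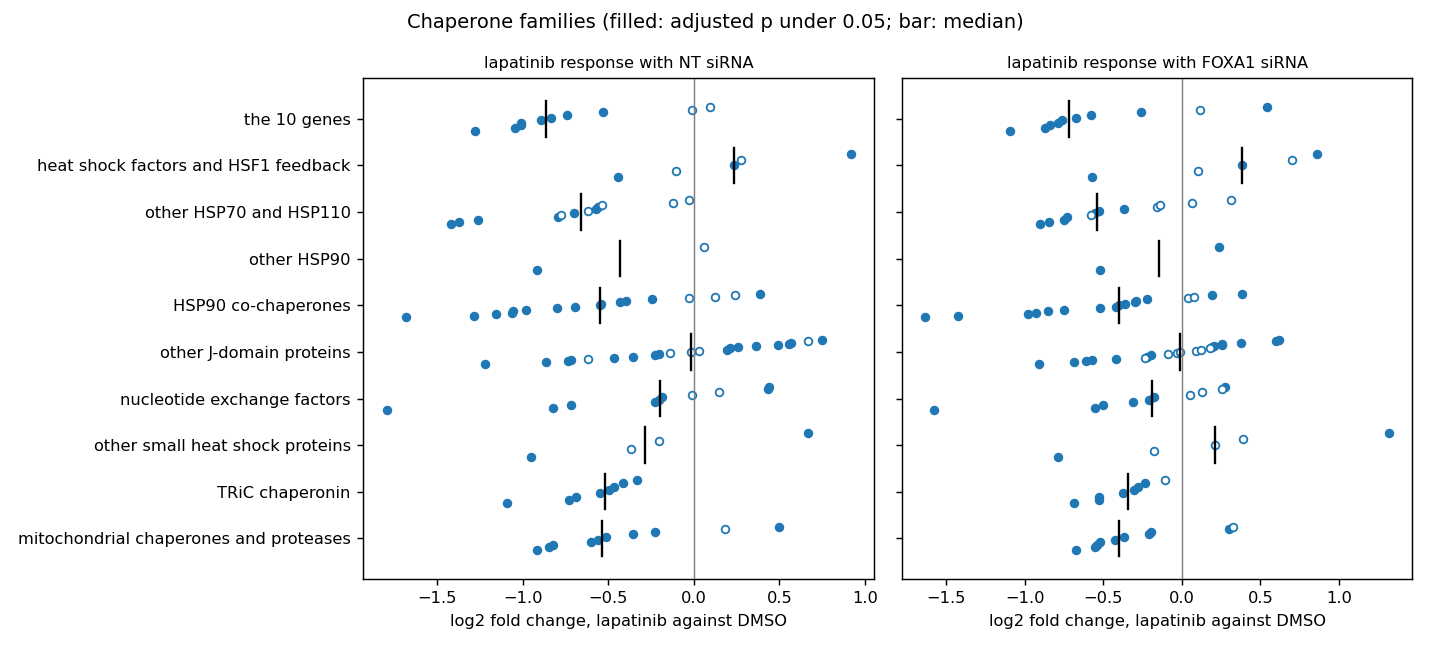
Log2 fold changes with lapatinib under NT siRNA (left) and FOXA1 siRNA (right) of each tested gene of the 10 and of 9 other chaperone lists, with filled points for an edgeR adjusted p under 0.05 and a bar for the median. The medians of the 10 genes are -0.87 and -0.72, and all 8 TRiC subunits lie below 0 in both panels.

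Other small heat shock proteins were divided with FOXA1 siRNA. Of 9 genes 4 were tested in DMSO, and 2 of them, CRYAB and HSPB7, were higher and HSPB11 was lower at -0.35. The HSPB11 call was lost without replicate 1 or 3 of either group (adjusted p between 0.0568 and 0.0796), and the replicate block called HSPB8 higher too (0.44, adjusted p = 0.0161). CRYAB, the alpha-B crystallin, was at 196 ± 38.4 normalized counts with NT siRNA and 484 ± 53.4 with FOXA1 siRNA in DMSO (SD, n = 3) and at 306.5 ± 10.5 against 1202 ± 162 in lapatinib. It rose with FOXA1 siRNA by 1.32 and 1.96 on the log2 scale (edgeR adjusted p = 0.000357 and 9.06e-06), and HSPB7 by 0.96 and 1.11 (adjusted p = 0.000521 and 1.58e-05). In lapatinib HSPB8 was higher as well (2.01-fold, adjusted p = 0.00340) and HSPB11 was lower at -0.33, a call lost without replicate 3 of NT siRNA and lapatinib (adjusted p = 0.0554). HSPB2, between 0 and 2.38 normalized counts with NT siRNA and between 5.12 and 12.4 with FOXA1 siRNA in lapatinib, was tested there only because a library of the FOXA1 siRNA group reached 10 counts, so no call is given. The HSP70 genes HSPA2 (1.24 and 1.71) and HSPA4L (0.65 and 1.16) were higher with FOXA1 siRNA in both treatments, and HSPA13 was lower (-0.60 and -0.71).

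TRiC was called in 0 of 8 subunits with FOXA1 siRNA in DMSO and in 7 of 8, all higher, in lapatinib, with CCT4 at 0.27 and CCT5 at 0.24. In DMSO the replicate block called 1 subunit higher and 2 lower. Of the 17 HSP90 co-chaperones, FOXA1 siRNA lowered 8 and raised 1 in DMSO, FKBP5 by 0.49 and FKBP4 by 0.40, and lowered 3 and raised 1 in lapatinib. With the replicate block these counts were 10 lower and 1 higher in DMSO and 6 lower and 3 higher in lapatinib. Over the 89 genes, 12 were higher and 23 lower of 84 tested with FOXA1 siRNA in DMSO, beside the 21.9% and 21.3% of all genes, and 24 higher and 14 lower of 85 in lapatinib, beside 22.7% and 22.2%. With the replicate block they were 18 higher and 32 lower in DMSO, beside 30.3% and 30.2% of all genes, and 33 higher and 22 lower in lapatinib, beside 30.6% and 31.1%. The 24 include HSPA6 and HSPB2, which were tested through the FOXA1 siRNA group alone. For the interaction 6 of the 85 tested were positive and 1 was negative, beside 3.99% and 3.2% of all genes. With the replicate block 29 were positive and 2 negative, beside 11.1% and 9.22% of all genes. The block called 8 of 8 TRiC subunits with a positive interaction, where the fit without it called 2, and 8 of 17 HSP90 co-chaperones, where the fit without it called 0. As in HSPD1, the decrease of the called TRiC subunits with lapatinib was smaller with FOXA1 siRNA.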

How the data were processed

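The authors deposited for each of 12 libraries an expected count, an estimated number of reads that need not be whole, and TPM for 20531 genes. Per the file headers the columns are those of RSEM, whereas the methods name hg38, STAR and Salmon. The labels name DESeq2 1.12.3 and R 3.2.2 and conflict on the library kit, so the strand setting of the counting is not given in the sources used here. Deposited TPM were used for levels between genes, for sums and ratios of the 10 genes across groups and for the cell type markers. No test used them. TPM of the listed genes summed to between 922405 and 939340 in the DMSO libraries and between 896833 and 914469 in the lapatinib libraries. Expected counts were rounded and tested in R 4.3.3 with edgeR 4.0.16 (glmQLFit, glmQLFTest, TMM), keeping genes that reached 10 counts in 1 or more of the samples fitted. Each comparison used its own 6 samples and the interaction all 12. Standard errors are the fold change divided by the root of its F statistic. The 29 rows with no symbol, 0.031% to 0.046% of counts, were kept.

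Deviations from the group mean were correlated between libraries of different groups with the same replicate number in each of 18 pairs. Their r was between 0.195 and 0.617 (mean 0.36) over 11512 genes. For different numbers r was between -0.435 and 0.234 (mean -0.17), so the ranges overlapped. The deviations of the 3 libraries of a group sum to 0, so this negative mean largely follows from the positive one and is no separate evidence. Replicate 1 of NT siRNA and DMSO was closer to replicate 3 (0.234) than to replicate 1 (0.195) of NT siRNA and lapatinib. The main fits used no block, and the fit with the labels' replicate numbers as a block was the alternative. Tried in turn were no filter, DESeq2 1.42.0, upper quartile or RLE scaling, 10 counts in every sample, the replicate block, HSPA1A and HSPA1B summed, all 12 samples in one model, a log2 fold change of at least 1, and leaving out each replicate, with replicate 2 of all groups left out as a choice made after seeing the data. Members and lists were chosen with earlier results of these data known. In each list up to 2 genes per direction were named, those with the largest change among called genes with no overlap and a mean of at least 100 normalized counts, and HSF1, HSF2, HSPA6, HSPA5, HSP90B1, BAG3 and FOXA1 always. A gene that this rule named is not reported here. Genes called in the interaction were named after their values were seen, and the genes most alike by their highest r. The fits were tested on simulated data. Start windows came from RefSeq (GRCh38.p14) and transcripts from GENCODE. Tables and plots were made in Python 3.11.15 (matplotlib 3.10.9, pandas 2.3.3).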

Additional observations from a re-analysis of the deposited data

Results flagged for a closer look

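These results were picked out because the response to lapatinib differed between the siRNAs by a test of the difference itself (edgeR interaction, adjusted p under 0.05). HSPD1 differed by 0.44 on the log2 scale, FOXA1 siRNA minus NT siRNA, that is, a smaller decrease with FOXA1 siRNA. Among the other chaperones, the differences were 0.59 for HSPA12A, 0.53 for HSPA4L, 0.42 for CCT5, 0.41 for TRAP1, 0.23 for CCT6A, 0.19 for HSP90B1 and -0.36 for DNAJC5. HSPD1 and TRAP1, both mitochondrial, had edgeR adjusted p of 0.0243 and 0.00345, and the HSPD1 call was lost without any of 6 single libraries. HSPE1, the partner of HSPD1, was not called (edgeR adjusted p = 0.393). Of the 10 listed mitochondrial chaperones and proteases, which include TRAP1, 1 had a positive call. HSP90B1 was called higher with lapatinib under FOXA1 siRNA and not under NT siRNA, and HSPA12A, HSPA4L, CCT5, CCT6A and TRAP1 fell under both siRNAs, less so under FOXA1 siRNA. DNAJC5 was the single one with a negative difference.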

How the results depend on the processing

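The 8 decreases with lapatinib were counted as 8 under NT siRNA and 8 under FOXA1 siRNA with the replicate block and without replicate 2 of all groups, and as 7 with HSPA1A and HSPA1B summed, which leaves 9 genes. Under NT siRNA the genes called lower were 4 with a log2 fold change of at least 1 and between 6 and 8 without single replicates, and those called higher were 1 without replicate 2 of all groups and between 0 and 1 without single replicates. Under FOXA1 siRNA the genes called lower were 1 with that fold change and between 7 and 8 without single replicates, and those called higher were 2 with the replicate block, 0 with the fold change and between 1 and 2 without single replicates. For FOXA1 siRNA in DMSO the genes called higher were 0 under upper quartile normalization, DESeq2 and the fold change, 3 with the replicate block and between 0 and 1 without single replicates, and those called lower were 5 with the replicate block, 2 without replicate 2 of all groups and between 0 and 1 without single replicates. In lapatinib those called higher were 6 with the replicate block and 0 with the fold change. For the interaction the genes called positive were 2 under upper quartile normalization and DESeq2, 5 with the replicate block and without replicate 2 of all groups, and between 0 and 2 without single replicates, while the calls over all genes went from 1008 to 2853 with the block. Without replicate 2 of all groups, 2518 genes had an interaction call. That setting called 4614 of 13527 genes lower and 4536 higher with lapatinib under NT siRNA. Under FOXA1 siRNA it called 4171 of 13597 lower, and for FOXA1 siRNA in DMSO 3792 of 13547. The replicate block ended no call of the 10 genes. Without replicate 2 of all groups, uncalled values changed sign to -0.017 for HSPD1 and -0.015 for HSPE1 (FOXA1 siRNA in DMSO), -0.003 for HSPA8 and -0.006 for HSF2 (in lapatinib) and -0.12 for HSPA1A (interaction). Without single replicates the sign of uncalled values changed within these log2 ranges. They were -0.067 to 0.042 for DNAJB1 and -0.05 to 0.28 for HSPB1 (lapatinib with NT siRNA), -0.03 to 0.34 for HSPA1A, -0.04 to 0.38 for HSPA1B, -0.23 to 0.027 for HSPH1, -0.055 to 0.08 for HSPD1 and -0.081 to 0.08 for HSPE1 (FOXA1 siRNA in DMSO), -0.11 to 0.39 for HSPA1A, -0.13 to 0.17 for HSPA8, -0.10 to 0.16 for HSP90AA1, -0.10 to 0.24 for HSPH1, -0.015 to 0.047 for DNAJB1 and 0 to 0.058 for HSF2 (in lapatinib), and -0.25 to 0.25 for HSPA1A, -0.14 to 0.30 for HSPA1B and -0.014 to 0.29 for HSPA8 (interaction). The causes were not tested. Counting depth does not limit the 10 genes, but HSPA6 rests on a handful of reads, and the division between HSPA1A and HSPA1B is limited by shared sequence.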
